A study of Mus musculus with 2 samples.

Results

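The smooth muscle contractile genes described here are 31 genes listed by symbol: the filament proteins of smooth muscle, the enzymes that switch contraction on and off, the anchoring proteins, the calcium handling and receptor genes, and the transcription factors of the tissue. All 31 of them were found among the 43346 Ensembl genes of the deposited tables. The list was written with earlier results of these data known. The tissue was the small intestine of 1 adult female C57BL/6J mouse aged 10 weeks, with no treatment and no second genotype in the labels. Poly(A) RNA was measured in 2 technical libraries of that animal, here called the first library (technical replicate 1) and the second library (technical replicate 2, made in 2015). The labels describe no second animal, so every difference below is between libraries of 1 mouse. The whole tissue was used, and in such a bulk sample fewer cells of a type and less RNA per cell cannot be told apart.

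Smooth muscle of the gut wall lies in an outer longitudinal and an inner circular layer, with a thin muscularis mucosae below the epithelium. Contraction starts when a rise in calcium activates myosin light chain kinase, and the phosphorylated regulatory light chain lets myosin pull on actin filaments. Those filaments are anchored in dense bodies and in dense plaques at the membrane rather than in sarcomeres. Serum response factor and its partner myocardin bind a sequence called the CArG box and drive many of these genes.

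The libraries held 28277875 and 24509862 expected counts (fragments assigned to genes by the authors' quantification) in that order. Genes of the mitochondrial genome and their nuclear copies, 48 in all, took 72.3% of the TPM (a level per transcript length, scaled to the same total in each library) in the first library and 21.6% in the second. The remaining nuclear genes held 16422775 and 22137614 expected counts. A TPM of the same nuclear gene is therefore not on 1 scale in both libraries, and TPM is used below for levels within a library. For differences, each gene has a log2 ratio of the second over the first library on counts scaled with edgeR's TMM factors, given with its counting standard error (SE). A gene was called when an exact binomial test gave a Benjamini-Hochberg adjusted p under 0.05 and the ratio was at least 2-fold. With 1 library on each side this test compares the libraries and covers counting error only.

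The muscle genes were detected in both libraries, but at different levels and in a different order. The 31 members summed to 495.1 TPM in the first library and 3457 TPM in the second, or 0.179% and 0.441% of the TPM of nuclear genes. In the first library 22 members reached 1 TPM, in the second all 31 did, and 22 did so in both. The median member stood at 4.81 TPM in the first library and at 29.7 TPM in the second. These values carry the difference in scale between the libraries. On a TPM of nuclear genes alone, the median member stood at 17.4 in the first library and 37.9 in the second. On that scale Des (0.98), Smtn (0.072) and Srf (0.58) were the only members below 1 in the first library. In the first library the 5 highest members were Tpm1, Cald1, Mylk, Atp2a2 and Cav1, and in the second they were Myl6, Tpm1, Acta2, Myl9 and Tpm2. Tpm1 is thus the one gene on both lists, and the 5 leading genes held 71.2% of the members' TPM in the first library and 71.0% in the second. Across the 31 members, which share the same pair of libraries, the Spearman correlation of TPM between libraries was 0.344, against 0.557 over the 13792 nuclear genes that reached 1 TPM in a library.

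Of the 31 members, 14 (45.2%) were called higher in the second library and 7 (22.6%) higher in the first, while 10 were not called. Among all 15194 genes tested, 40.2% were called higher in the second library and 27.5% higher in the first, so the members' shares lay near those of all genes. The median log2 ratio of the members was 0.025, against 0.26 for all genes tested. Of the 11 members that form the thick filament, the actin filament and its regulators, 9 were called higher in the second library, and of the 7 calcium, channel and receptor members none was called higher there.

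**Figure D1:**
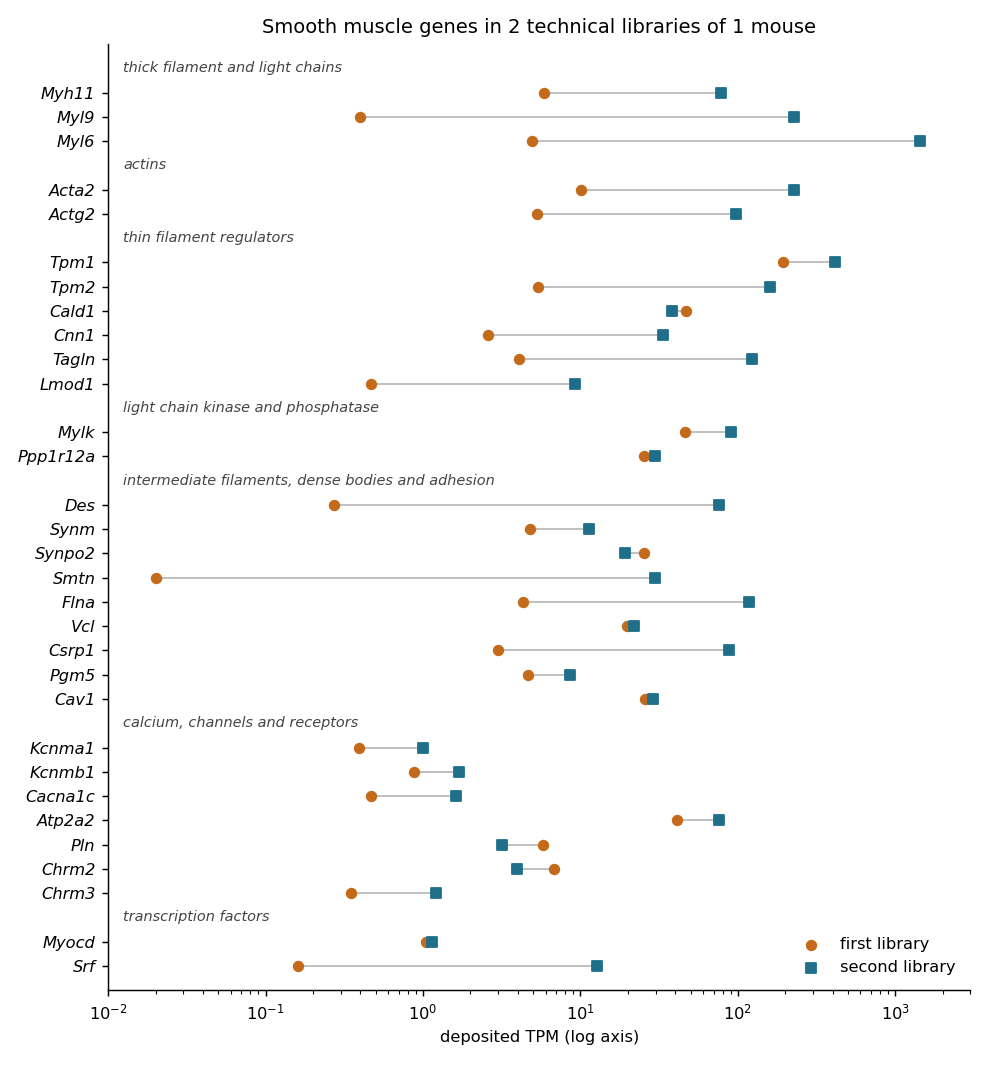
Deposited TPM of each of the 31 members on a log axis, grouped by role, with a circle for the first library and a square for the second, and 1 value per library. The myosin and actin genes lie far apart between libraries (Myl6 at 4.90 and 1426 TPM), and Cald1, Synpo2, Pln and Chrm2 have the higher TPM in the first library, where nuclear genes hold a smaller part of the total.

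Myosin of smooth muscle is a pair of heavy chains with essential and regulatory light chains, and all 3 of its members were called higher in the second library. Myh11 (ENSMUSG00000018830, chr16:14194535-14291372 in GRCm38), the smooth muscle heavy chain and the most specific marker of the mature cell, stood at 5.86 TPM (1118 counts) in the first library and 78.4 TPM (9530 counts) in the second. Its log2 ratio was 2.46 ± 0.05 (SE). The light chains differed far more than the heavy chain they sit on. Myl9 (ENSMUSG00000067818, chr2:156775420-156781658), the regulatory light chain that the kinase phosphorylates, stood at 0.40 TPM from 11 counts in the first library and at 227 TPM from 3945 counts in the second, a log2 ratio of 7.79 ± 0.43 (SE). Myl6 (ENSMUSG00000090841, chr10:128490860-128494145), the essential light chain that nonmuscle cells also use, stood at 4.90 TPM from 69 counts and at 1426 TPM from 13088 counts, a log2 ratio of 6.92 ± 0.17 (SE). In the second library Myl6 alone held 41.2% of the members' TPM, and in the first 0.99%. Myl6 was the one member whose deposited posterior count had a standard deviation above 0 in a library (0.67 and 2.39 counts).

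Both muscle actins were also higher in the second library. Acta2 (ENSMUSG00000035783), the alpha actin shared by vascular and visceral muscle, stood at 10.1 TPM (477 counts) in the first library and 227 TPM (6862 counts) in the second. Actg2 (ENSMUSG00000059430), the gamma actin that marks visceral muscle, stood at 5.32 TPM (145 counts) and 96.9 TPM (2108 counts). The log2 ratios were 3.21 ± 0.07 (SE) for Acta2 and 3.22 ± 0.12 (SE) for Actg2, a gap smaller than either error on this scaling. With the GC trend removed they were 3.08 and 1.52. Acta2 had the higher TPM of the pair in both libraries. The opening bases of both reading frames are shown because the genes are near copies, and reads must fall on such differences to be assigned. Capitals mark the bases that differ in an alignment of the coding sequences, and both genes lie on the minus strand of GRCm38 (Acta2 at chr19:34252494-34252553 and Actg2 at chr6:83527382-83527441).
Acta2-201: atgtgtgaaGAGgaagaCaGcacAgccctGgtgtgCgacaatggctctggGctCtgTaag
Actg2-201: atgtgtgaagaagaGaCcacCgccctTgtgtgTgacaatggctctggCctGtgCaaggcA
Over the whole coding sequence these transcripts shared 84.2% of aligned positions, and their longest run without a difference was 29 bases. The deposited posterior standard deviation of the gene count was 0 for both genes in both libraries.

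Of the 6 regulators of the actin filament, 4 were called higher in the second library, 1 was called in the other direction, and the most abundant of them was not called. Among all genes 40.2% and 27.5% were called in those directions. Tpm1 (ENSMUSG00000032366), a tropomyosin that lies along the actin filament, stood at 193 TPM (7607 counts) in the first library and 415 TPM (11563 counts) in the second. Its log2 ratio was -0.029 ± 0.021 (SE), with an adjusted p of 0.193 by the exact binomial test. Tpm2, the other muscle tropomyosin, stood at 5.34 TPM (158 counts) and 160 TPM (3078 counts), a log2 ratio of 3.65 ± 0.12 (SE). Cald1, the caldesmon gene whose product holds back the myosin ATPase, went the other way, with 46.5 TPM (4254 counts) in the first library, 38.4 TPM (2226 counts) in the second and a log2 ratio of -1.57 ± 0.04 (SE). Cnn1, calponin, a late marker of contractile cells, stood at 2.59 TPM and 33.3 TPM. Tagln, the actin-bundling protein SM22, stood at 4.09 TPM and 124 TPM. Lmod1, leiomodin, which nucleates actin filaments in smooth muscle, stood at 0.47 TPM from 52 counts and 9.27 TPM from 658 counts. All 3 of Cnn1, Tagln and Lmod1 were called higher in the second library, with log2 ratios of 2.40, 3.64 and 3.02.

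Neither of the 2 members that act on the phosphorylation of the light chain was higher in the second library. The other subunits of the phosphatase are not members and are not described here. Mylk, the myosin light chain kinase, stood at 46.4 TPM (10470 counts) in the first library and 89.9 TPM (12935 counts) in the second, a log2 ratio of -0.33 ± 0.02 (SE), which is under 2-fold and was not called. Ppp1r12a, the targeting subunit of myosin phosphatase, stood at 25.3 TPM (2408 counts) and 29.7 TPM (1802 counts) and was called higher in the first library with a log2 ratio of -1.05 ± 0.04 (SE). That call was lost when nuclear count totals set the scale (-0.85) and with the GC trend removed (-0.44). The kinase and its substrate therefore stood in opposite order in the libraries: Mylk was above Myl9 in TPM in the first library and below it in the second.

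Among the 9 members of the intermediate filaments, dense bodies and adhesion sites, 4 were called higher in the second library, 3 higher in the first and 2 were not called. The shares over all genes were 40.2% higher in the second and 27.5% higher in the first. Des (ENSMUSG00000026208), desmin, the main intermediate filament protein of muscle, stood at 0.27 TPM from 11 counts in the first library and 75.4 TPM from 3961 counts in the second, a log2 ratio of 7.80 ± 0.43 (SE). Smtn, smoothelin, a marker of contractile smooth muscle, had 1 count in the first library and 1325 in the second. Its log2 ratio was 9.15, with an exact 95% counting interval of 7.26 to 15.0. Flna, the filamin that crosslinks actin under the membrane, stood at 4.34 TPM (345 counts) and 117 TPM (8030 counts), and Csrp1, a LIM protein of the actin cytoskeleton, at 3 TPM (145 counts) and 87.9 TPM (2723 counts). Their log2 ratios were 3.91 ± 0.08 and 3.59 ± 0.12 (SE). Vcl, Cav1 and Synpo2 went the other way. Vcl, vinculin of the dense plaque, stood at 19.9 TPM (2961 counts) and 22.0 TPM (2092 counts), with a log2 ratio of -1.13 ± 0.04 (SE), or -0.93 and not called on nuclear count totals. Cav1, caveolin of the membrane pits, stood at 25.9 TPM (1813 counts) and 28.8 TPM (1091 counts), and Synpo2, an actin-binding protein of the dense body, at 25.4 TPM (2626 counts) and 19.1 TPM (1569 counts). These 3 were the members of this group of 9 called higher in the first library, Cav1 with a log2 ratio of -1.37 and Synpo2 with -1.38. Synm, the intermediate filament protein synemin, had a log2 ratio of 0.025 ± 0.059 (SE) from 968 and 1528 counts, and Pgm5, a phosphoglucomutase relative of adhesion sites, had -0.22 ± 0.10 (SE) from 372 and 497 counts. Neither was called, and the exact 95% counting interval of the ratio ran from -0.091 to 0.14 on the log2 scale for Synm.

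None of the 7 calcium handling, channel and receptor genes was called higher in the second library. Atp2a2, the calcium pump of the sarcoplasmic reticulum, stood at 41.3 TPM (5211 counts) in the first library and 76.0 TPM (6135 counts) in the second, with a log2 ratio of -0.40 ± 0.03 (SE), which is under 2-fold. Pln, phospholamban, the inhibitor of that pump, was called higher in the first library, with 5.75 TPM (368 counts) against 3.17 TPM (130 counts) and a log2 ratio of -2.13 ± 0.15 (SE). Chrm2, the more abundant muscarinic acetylcholine receptor of gut muscle, was called higher there as well, with 6.79 TPM (1103 counts) against 3.93 TPM (407 counts) and a log2 ratio of -2.07 ± 0.08 (SE). Chrm3, the receptor that couples to calcium release, stood at 0.35 TPM from 43 counts and 1.21 TPM from 95 counts. Chrm2 had the higher TPM of the receptors in both libraries. Cacna1c, the pore of the L-type calcium channel, had 176 and 275 counts, Kcnma1, the pore of the large-conductance potassium channel, had 50 and 76, and Kcnmb1, its smooth muscle subunit, had 103 and 127. No ratio among Chrm3, Cacna1c, Kcnma1 and Kcnmb1 passed the test: the adjusted p values of the exact binomial test were 0.0618, 0.968, 0.935 and 0.101. At 43 to 275 counts the intervals are wide, and that of Kcnma1 ran from -0.56 to 0.52 on the log2 scale.

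Each transcription factor was near the lower end of the 31 members in 1 library. By TPM, Srf had rank 30 in the first library and 21 in the second, and Myocd had rank 22 and 30. Myocd, myocardin, the coactivator that sets the smooth muscle program, stood at 1.04 TPM from 92 counts in the first library and 1.14 TPM from 72 counts in the second. Its log2 ratio was -0.98 ± 0.23 (SE), just under 2-fold. The transcripts of Myocd went in opposite directions. Myocd-206, a processed transcript with no coding sequence, had 70.3 counts in the first library and 6.47 in the second. The protein-coding Myocd-203 had 12.3 and 64.2. Srf, serum response factor, stood at 0.16 TPM from 19 counts and 12.8 TPM from 945 counts, a log2 ratio of 4.97 ± 0.33 (SE), and was called higher in the second library. Srf has the highest GC content of the members (64.4%), and once the trend of the ratio on GC content over all nuclear genes was subtracted its ratio was -1.54 and it was called higher in the first library.

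The factor's own sequence was looked for in the members' promoters. RefSeq's GRCm38.p6 table gave the bases from 250 before to 50 after the start for 26 of the 31 members, and Tagln, Myocd, Myh11, Actg2 and Atp2a2 had no entry there. The CArG box was searched as CC, then 6 bases that are each A or T, then GG, which reads the same way on either strand. It was present for 4 of the 26 members, against 1.81% of all 27025 genes in the table. The matches are shown with the box in capitals, 5′ to 3′ on the strand of the gene: Myl9 at chr2:156775293-156775322 on the plus strand, Myl6 at chr10:128493040-128493069 on the minus strand, Vcl at chr14:20929161-20929190 on the plus strand, and Srf, with a pair of boxes, at chr17:46556205-46556254 on the minus strand.
Myl9: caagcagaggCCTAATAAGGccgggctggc
Myl6: gctcttacttCCTTATATGGgcaggaccta
Vcl: cccactatgcCCTTATAAGGagcgccccgc
Srf: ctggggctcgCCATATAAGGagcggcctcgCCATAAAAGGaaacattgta
The boxes begin 161 bases before the start in Myl9, 50 in Myl6, 227 in Vcl, and 82 and 62 in Srf. The Myl6 window belongs to a start listed within the gene. Of these 4 genes, Myl9, Myl6 and Srf were called higher in the second library and Vcl higher in the first, so genes with this match did not share a direction. A match describes these letters in this window and no binding was measured.

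The direction of a member's ratio went with the GC content of its transcripts. Of the 21 members with at least 50% GC, 13 were called higher in the second library, 1 higher in the first and 7 were not called. Of the 10 members below 50% GC, 1 was called higher in the second library, 6 higher in the first and 3 were not called. Nuclear genes in general went the same way. Their median log2 ratio was -1.99, 0.56 and 3.76 in the 1% bins of GC content centred on 40.5%, 50.5% and 56.5%. Over the 31 members, all read from the same pair of libraries, the log2 ratio and GC content had a Spearman correlation of 0.894, and over the 15127 tested nuclear genes with a known GC content it was 0.855. Acta2, at 49.6% GC, was the one member below 50% that was called higher in the second library. Members of like GC content, as the mean over a gene's transcripts, still differed. The 7 members between 53% and 54% by that mean had log2 ratios from 0.50 (Chrm3) to 7.80 (Des). The 852 nuclear genes in that range had a median of 1.92 and a 10th to 90th percentile range of -0.19 to 4.35. Weighted by transcript TPM, however, GC content was 50.2% for Chrm3 and 56.4% for Des. Myh11 and Myl6, with 1 transcript each, had 53.1% and 53.4% GC and log2 ratios of 2.46 and 6.92. These transcripts also differ in length, at 6632 bases for Myh11 and 665 for Myl6. Over the 31 members the log2 ratio and the deposited effective length had a Spearman correlation of -0.499.

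**Figure D2:**
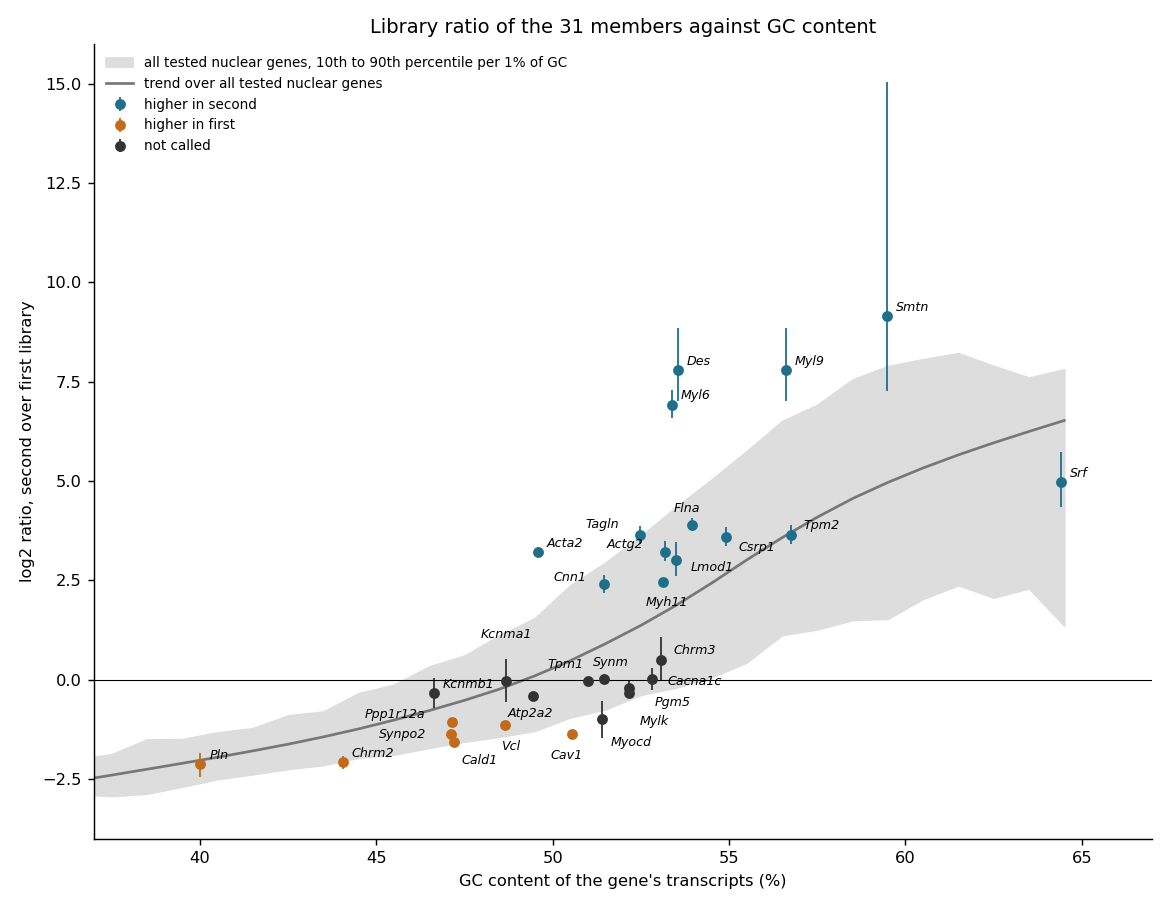
Log2 ratio of the second over the first library (vertical) against the mean GC content of a gene's transcripts (horizontal) for the 31 members, with exact 95% counting intervals as bars, over the 10th to 90th percentile band and the trend of all tested nuclear genes. Smtn, Des, Myl9, Myl6, Acta2 and Tagln lie above the band for their own 1% of GC content, Cav1, Myocd, Cald1 and Chrm2 below it, and the other 21 inside. With a trend on GC content weighted by transcript TPM subtracted, Cav1, Myocd, Cald1 and Chrm2 had -0.027, -0.81, -0.81 and -0.34. None of those was called, while Smtn, Des, Myl9, Myl6, Acta2 and Tagln stayed called higher in the second library.

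When the trend of the ratio on GC content over all nuclear genes was subtracted, 10 members (32.3%) were called higher in the second library and 7 (22.6%) higher in the first. Among all genes these shares were 17.5% and 17.6%. All 10 of the former had been called higher in the second library before: Myl9, Myl6, Acta2, Actg2, Cnn1, Tagln, Lmod1, Des, Smtn and Flna. Their ratios with the trend removed ran from 1.14 for Lmod1 to 5.89 for Des. The other 4 that had been called higher in the second library were Myh11, which kept 0.77, Csrp1 with 0.92, Tpm2 with -0.063, and Srf. The set higher in the first library was nearly all replaced, since Cav1 was the 1 member of 7 called there both times, and Mylk, Pgm5, Cacna1c, Chrm3, Myocd and Srf were called there with the trend removed. A trend built on GC content weighted by the TPM of each transcript, chosen after the data were seen, gave the same 10 members higher in the second library but 5 higher in the first, of which 3 were shared with the unweighted trend (Mylk, Pgm5 and Srf). Under the weighted trend Cav1 had -0.027 and was not called, and Vcl had -1.09 and was. With either trend, 7 of the 11 filament genes were called higher in the second library and no calcium, channel or receptor member was. Whether GC content itself or transcript length shaped these library differences was not tested.

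Shares within a gene family compare each smooth muscle gene with the forms that other cells use, and the families were set after the members' values had been seen. The smooth muscle actins Acta2 and Actg2 together held 4.24% of the TPM of 6 actin genes in the first library and 10.00% in the second. The cytoplasmic actins Actb and Actg1 held nearly all the rest, with Actb at 147 TPM in the first library against 1731 in the second and Actg1 at 201 against 1179. Among the conventional myosin heavy chains Myh11 held 65.4% in the first library and 25.3% in the second, although its own ratio was positive, and Myh14, a nonmuscle heavy chain abundant in epithelia, stood at 0.22 TPM in the first and 170 TPM in the second. Myl9 held 0.45% of the regulatory light chains in the first library and 32.1% in the second, and the nonmuscle Myl12b 73.5% and 51.7%. Cnn1 held 16.8% and 37.6% of the calponins, and Tagln 28.1% and 38.3% of the transgelins. Flna held over 80% of filamin TPM in both libraries, with 87.1% and 82.4%. Tpm1 was the leading tropomyosin in both libraries with 58.7% and 50.03%, and Tpm2 went from the lowest of the 4 in the first library (1.63%) to 19.3% in the second. Atp2a2 held 86.3% and 63.8% of the calcium pumps, and Chrm2 94.6% and 60.1% of the muscarinic receptors.

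**Figure D3:**
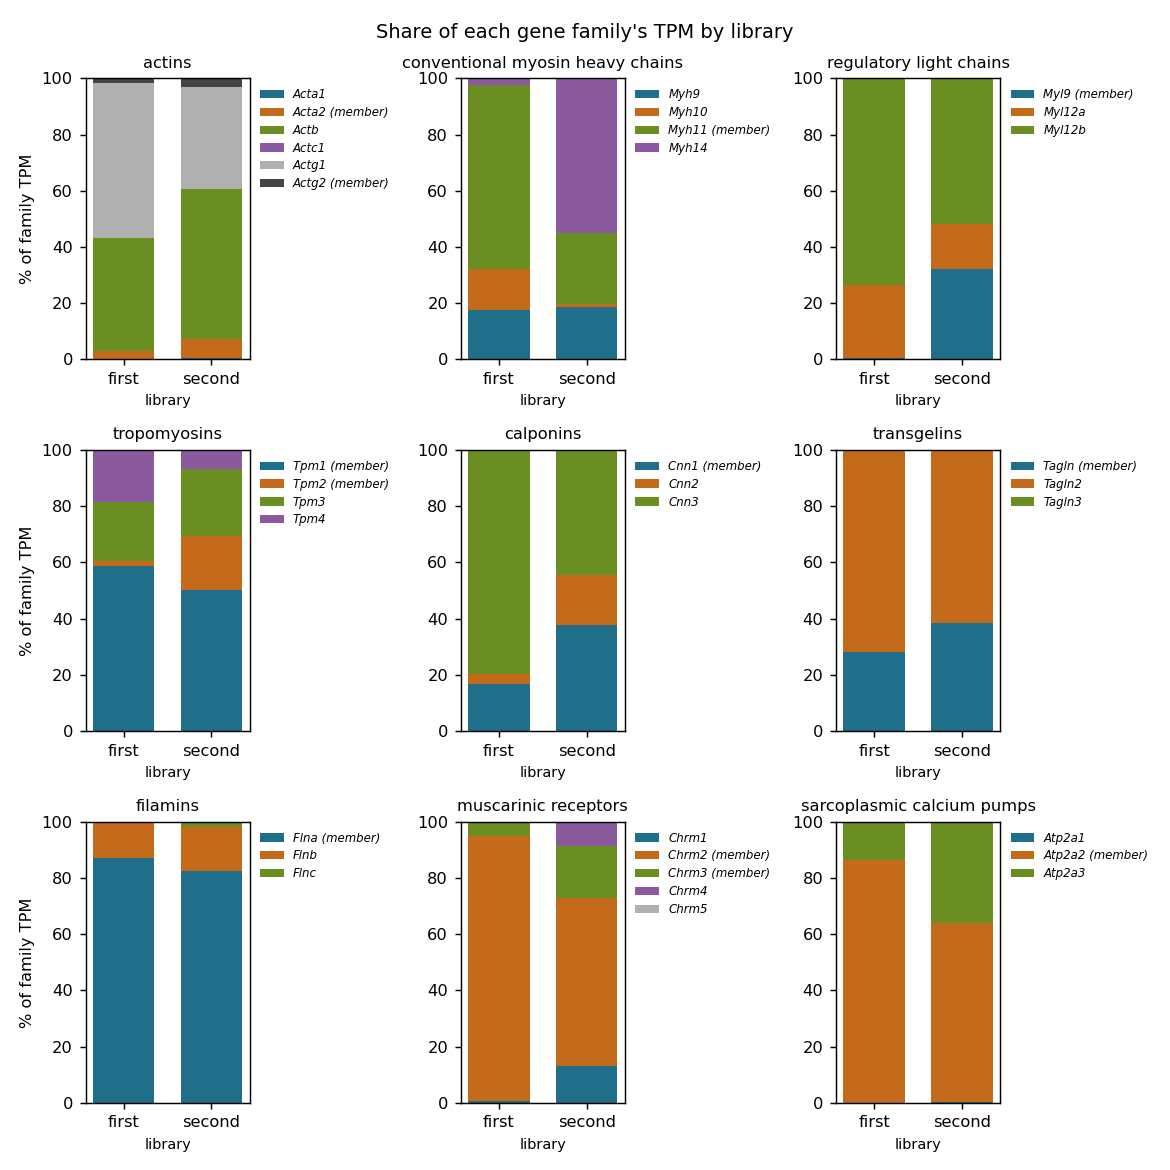
Share of each gene in the summed TPM of its family (vertical, percent) in the first and second library, for 9 families, with 1 bar per library and the smooth muscle members marked in each key. Myl9 is almost absent from the first bar of the regulatory light chains and holds 32.1% of the second.

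The isoform tables hold 170 transcripts of the members, and 10 members have 1 transcript each, among them Myh11, Acta2, Cnn1, Tagln and Vcl. A leading isoform was compared where a gene had 10 TPM in both libraries and at least 2 transcripts at 1 TPM. Of the 5 members this left, 3 (Atp2a2, Cav1 and Synpo2) had the same leading isoform in both libraries and 2 (Tpm1 and Cald1) did not, and over the 2269 genes that met the rule the same isoform led in 61.7%.

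Tpm1, whose log2 ratio was -0.029 on TMM scaling and -0.72 with the GC trend removed, had a different make-up in each library. In the first library 58.5% of its TPM was assigned to Tpm1-220, annotated as a target of nonsense-mediated decay, with 4096 counts, and in the second library that transcript had 0 counts. Tpm1-214, which encodes a long tropomyosin of 852 coding bases, had 0.01% in the first library and 45.5% (5338 counts) in the second. Tpm1-211, a short form of 744 coding bases, had 25.0% and 33.5%. Summed over transcripts, long coding forms (843 to 861 bases) went from 2.80% to 50.1% of the gene and short ones (735 to 753 bases) from 34.4% to 45.8%. The long and short forms start from different promoters, and their first 60 coding bases are shown with the 40 that differ in capitals, from the minus strand of chr9:67049073-67049132 and chr9:67043650-67043709.
Tpm1-214: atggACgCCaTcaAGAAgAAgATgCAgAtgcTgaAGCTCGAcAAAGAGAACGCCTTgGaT
Tpm1-211: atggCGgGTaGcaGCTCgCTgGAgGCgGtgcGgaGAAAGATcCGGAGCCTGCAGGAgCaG
Muscle filaments use long tropomyosins and short ones are mostly cytoskeletal, but coding length alone does not mark a muscle form.

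Caldesmon also has a muscle form, heavy caldesmon, with a central stretch that the light form of other cells lacks. Cald1-205, the 1 transcript classed as heavy, held 5.61% of the gene in the first library (355 counts) and 20.9% in the second (695 counts). The 4 light forms held 70.5% and 47.2%. Partial transcripts placed in neither class held much of the rest: Cald1-210 had 8.23% and 29.8%, and Cald1-207 had 14.5% and 0. Both run to chr6:34755807, from 34745981 and 34746007, and so span the place where the heavy stretch begins (34746016). Each has 4 exons, with 1063 bases in Cald1-210 and 413 in Cald1-207. Whether either carries the heavy stretch was not tested, so the heavy share counts Cald1-205 alone and may be too low. Cald1-203 led in the first library with 37%, and Cald1-204 led in the second with 33.2%, close to its 33.5% in the first. The first 60 bases of the heavy stretch, which begins after coding base 615 and lies at chr6:34746016-34746075 on the plus strand, are all in capitals because Cald1-204 and Cald1-203 have none of them.
Cald1-205: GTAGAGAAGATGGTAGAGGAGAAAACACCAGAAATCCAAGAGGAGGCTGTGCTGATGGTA

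Atp2a2 had a similar make-up in both libraries. Atp2a2-201, the widely used pump 2b, held 79.9% in the first library and 83.8% in the second, and Atp2a2-202, the pump 2a of cardiac and slow muscle, held 20.1% and 16.2%. The forms share 2983 coding bases and part near the end, as shown with 12 shared bases in lower case and the bases after the fork in capitals, from the minus strand of chromosome 5.
Atp2a2-201: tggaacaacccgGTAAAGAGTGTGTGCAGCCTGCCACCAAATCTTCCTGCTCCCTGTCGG
Atp2a2-202: tggaacaacccgCAATACTGGAG
Cav1-201 also held its place, with 73.4% and 72.5%. Synpo2-204 led in both libraries but went from 89.95% to 50.4%, while Synpo2-202, the longest form shown, had 0 counts in the first library and 541 in the second. Synm-202, the long synemin form, held 3.57% and 36.9%. Smtn had only its short form in the first library, from 1 count, and 72.7% long forms in the second. Actg2-202 and Actg2-203 took all reads of the gene in the first library and Actg2-201 all of them in the second. Actg2-201 and Actg2-202 have the same coding sequence, and their deposited posterior standard deviations were 17.2 and 18.7 counts in the first library. Differences in isoform share have no replicate check.

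**Figure D4:**
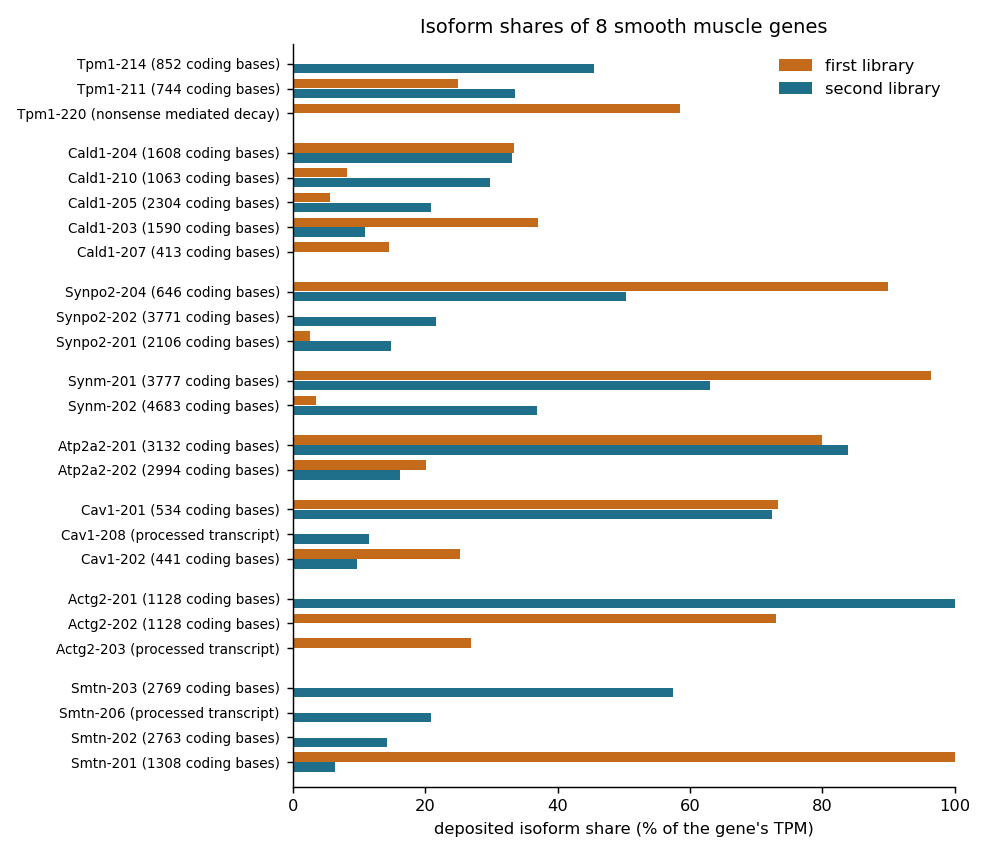
Deposited isoform share (horizontal, percent of the gene's TPM) in the first and second library for the isoforms of 8 members that reach 10% in either library, with coding length or annotated type beside each name. Atp2a2 and Cav1-201 bars are nearly equal, and Tpm1-220 and Tpm1-214 each reach 10% in 1 library only.

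The genes around the contractile apparatus were read from lists written with earlier results of these data known, and their counts stand against the shares of 40.2% and 27.5% over all genes. Of 30 genes of calcium signalling and relaxation, 6 were called higher in the second library and 12 higher in the first, with a median log2 ratio of -0.43, and with the GC trend removed the counts were 1 and 5. Gna11, a G protein subunit that couples receptors to phospholipase C, had a log2 ratio of 6.18, and Atp2b1, the calcium pump of the plasma membrane, had -1.52. Of 33 further dense plaque, dense body and caveola genes, 12 were called in each direction, with a median of 0.022, and 7 in each direction with the GC trend removed. Itgb1, the integrin beta chain of the plaque, had a log2 ratio of -1.55, and Zyx, zyxin, had 6.99. Of 27 tested genes of smooth muscle transcription and identity, 12 were called higher in the second library and 6 had the opposite call. With the GC trend removed the balance of that list turned, to 3 and 12. Of 27 other contractile genes, 11 and 6 were called in those directions, and 5 and 5 with the GC trend removed. Their median log2 ratio was 0.54, and Dstn, the actin-severing destrin, went against it with -1.49. The difference between these lists and the members was not tested.

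Among the members are 10 markers that define smooth muscle: Myh11, Acta2, Actg2, Des, Cnn1, Tagln, Smtn, Lmod1, Synpo2 and Myocd. All 10 had counts in both libraries, Smtn with 1 count in the first, and 8 were called higher in the second, with Synpo2 higher in the first and Myocd not called. Over all genes 40.2% and 27.5% were called in those directions. With the GC trend removed 7 markers were called higher in the second library and 1 (Myocd) higher in the first, against 17.5% and 17.6% of all genes. Myh11 and Synpo2 then lost their calls. Most counts of Myocd in the first library were assigned to its noncoding transcript Myocd-206, and its coding Myocd-203 had more counts in the second. The 10 markers summed to 0.0199% of the TPM of nuclear genes in the first library and 0.0885% in the second. Markers of other cells also differed between the libraries, and their sums are given on the same scale. Of 15 enterocyte genes, 10 were called higher in the second library, 2 higher in the first and 3 neither, and with the GC trend removed 7 and 3 were called. Their sum was 3.02% in the first library and 4.81% in the second, and Apoa4, an apolipoprotein, had a log2 ratio of 7.85. Of 14 fibroblast genes, 7 were called higher in the second and 2 in the first, and 2 each way with the trend removed. Their sum was 0.0715% and 0.0656%, and Dcn, decorin, had a log2 ratio of -1.24. Of 11 tested genes of pericytes and vascular muscle, 7 were called higher in the second library and 3 the other way, and 1 and 2 with the trend removed. The sum of that list was 0.0380% in the first library and 0.01246% in the second, and Rgs5 had a log2 ratio of -2.02. Of 9 genes of interstitial cells of Cajal and their PDGFRA neighbours, 1 was called higher in the second and 3 in the first, and 1 and 2 with the trend removed. Their sum was 0.0131% and 0.00608%, and Kit had a log2 ratio of 0.15. Of 14 tested genes of enteric neurons and glia, 6 and 4 were called in those directions, and 1 and 5 with the trend removed. Their sum was 0.0136% and 0.0060%, Vip had a log2 ratio of -1.84, and Sox10 had 0 and 31 counts. Of 6 tested mesothelial genes, 3 and 2 were called, and 1 each way with the trend removed. Their list summed to 0.00272% and 0.0768%, most of it from Krt19 in the second library, which is also an epithelial keratin, and Msln had 0 and 35 counts. Of 11 tested striated muscle genes, 9 and 1 were called, and 5 and 0 with the trend removed. Their sum was 0.000687% and 0.00615%, with Myh4 and Tnnc2 at 0 counts in both libraries, and Ckm and Acta1 at 0 counts in the first and 166 and 162 in the second. Dcn, Rgs5 and Vip went against the median log2 ratios of their lists, which were 0.56, 2.57 and 0.53. The part of these other cells in the members' ratios was not tested. Reads on an opposite strand are a further limit for 6 members (Smtn, Vcl, Synm, Tagln, Chrm2 and Cacna1c), each of which overlaps a gene on the other strand that reached 1 TPM, and the sources used here do not say whether counting used strand.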

How the data were processed

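Per the file headers, the deposited gene and transcript tables of each library hold the expected counts, TPM, FPKM and isoform percent that the authors obtained by sharing fragments among transcripts. Per the deposited notes, reads were quantified against annotation M4 on mm10; the sources used here name no aligner and no tool version. Symbols, coordinates and GC content (the mean over a gene's transcripts) came from GENCODE M21 on GRCm38, the same assembly. Expected counts were rounded, scaled with TMM (edgeR 4.0.16) and compared in each of 15194 genes having at least 20 counts over both libraries by a two-sided exact binomial test (scipy 1.17.1) with Benjamini-Hochberg adjustment. Log2 ratios used a prior of 0.5 counts. The GC trend was a lowess curve of span 0.3 (statsmodels 0.14.6) over tested nuclear genes. BLAST 2.17.0 identified the nuclear copies. The procedure was tested on simulated data. Neither edgeR's quasi-likelihood test nor DESeq2 could be fitted, because 1 library on each side leaves no residual degrees of freedom, and p-values measure counting error only. DESeq2 1.42.0 served for size factors. Alternatives were other scalings, filters, folds and GC trends, and either library alone. All 31 members are named; of every other list the 4 genes of highest mean TPM could be named, with other-cell markers at 0 counts, and the genes at 0 in 1 library were chosen after their values were seen. Isoforms are named at 10% or more of a gene in either library. The members and lists were chosen with earlier results of these data known. A further gene list is not reported here.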

Additional observations from a re-analysis of the deposited data

How the results depend on the processing

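With 1 mouse and 1 library on each side, no value here has biological error, and members with few counts in the first library (Smtn 1, Myl9 and Des 11 each, Srf 19) have wide intervals. The 14 members higher in the second library stayed 14 under DESeq2 size factors, nuclear count totals, other count filters and other folds, and were 10 under either GC trend. Those higher in the first library were 8 under DESeq2 size factors, 5 under nuclear totals and 11 at any fold. The median log2 ratio, 0.025, was -0.020 under DESeq2 size factors and -0.11 with the GC trend removed, a change of sign around 0; it was 0.23 under nuclear totals. With the GC trend removed 7 signs turned, those of Srf (-1.54), Tpm2 (-0.063), Chrm3 (-1.15), Cacna1c (-1.51), Synm (-0.86), Kcnmb1 (0.41) and Kcnma1 (0.14). With the trend on TPM-weighted GC content, chosen after seeing the data, 8 turned: Srf (-1.94), Tpm2 (-0.89), Pln (0.086), Synpo2 (0.28), Synm (-0.9995), Cacna1c (-0.93), Kcnmb1 (0.31) and Kcnma1 (0.44). The cause was not tested. By that weighted trend 14.5% and 13.6% of all genes were called higher in the second and first library. The median member level, 4.83 as log2 of mean TPM plus 1, was 2.54 to 4.94 from either library alone, and the members' mean share of TPM, 0.198%, was 0.0495% to 0.346%. With genes at 1 TPM or more, 6 of 9 members kept their leading isoform, against 53.3% of all such genes, because more genes were eligible.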
